A study of Pan troglodytes with 38 samples.

Results

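Genes that mark fat cells were followed across chimpanzee heart samples: ADIPOQ, LEP, PLIN1, CIDEC, PLIN4, FABP4, GPD1 and LIPE. These 8 genes were chosen by name and found by matching their symbols to the Ensembl identifiers of the chimpanzee gene count table, which holds 31373 genes, and all 8 had a match. The samples are post-mortem heart tissue of 38 chimpanzees, 1 polyA RNA library per animal, prepared from frozen tissue with a TruSeq kit. All samples form a single group by their labels, which give no age, treatment, genotype or region of the heart. By the paper's sample table, RNA of 17 animals was extracted in an earlier year and RNA of 21 animals in 2018. The paper states that its chimpanzees were born in captivity and that some are first-degree relatives. It also states that some had been challenged with HBV or HCV. The tests below treat the animals as independent. The study used these libraries to compare the variability of gene expression between primates and to map variants that act on expression.

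Fat cells store triglyceride in a single large droplet, whose surface proteins control access of lipases to the stored fat. They release fatty acids between meals and secrete hormones such as adiponectin and leptin into the blood. In the heart, fat cells lie mainly under the epicardium and around the coronary vessels, while heart muscle cells burn fatty acids and hold only small droplets.

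Library totals on exons orthologous between human and chimpanzee were between 14408012 (animal Little_R) and 81603350 (animal 476), with a median of 41226040. Levels are given in CPM, the counts of a gene in the annotated gene table per 1000000 counts of the library on orthologous exons. A count of 3 corresponded to between 0.0368 CPM and 0.208 CPM, depending on the library, and this was taken as the floor for genes with no count. Floors cover counting error only. The gene table total was 43892814 for Little_R, 62669620 for 537, 46671313 for 558, 62117603 for 4X0339, 44702234 for 4X0354 and 75841794 for 4x523, against 14408012, 18946174, 16479166, 24038347, 19827715 and 54380181 on orthologous exons. CPM on the orthologous total is therefore raised in the first 5 of these libraries relative to the last. The same holds for 529, with 60389782 against 26120173, and for 495, with 47754418 against 21335230. The place of such libraries among the highest hearts can depend on the choice of total. For FABP4, 4X0354 was highest with either total, with 33135 counts in 44702234 against 27954 in 53046061 for 4x0043. Libraries 537 and Little_R stood apart from the rest: their median Pearson correlation of log2 CPM with the other animals was 0.819 and 0.749, against a median of 0.943 over all animals. The totals of 4X0267, 389 and 4x0043, the animals left out in the comparisons that follow, were 48114736, 47067826 and 31112482.

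The heart label was borne out by the markers of heart muscle cells. All 11 cardiomyocyte markers were expressed in the samples, with a summed level between 16157 CPM in Little_R and 161142 CPM in 438. MYH7, the slow myosin heavy chain of the ventricle, was the most abundant of them with a median of 32999 CPM.

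The 2 secreted hormones among the members were close to absent in most hearts and abundant in a few. ADIPOQ (ENSPTRG00000015720), which encodes adiponectin, was between 0 CPM and 170 CPM with a median of 0.115 CPM. It was highest in 4X0267, followed by 389 with 50.4 CPM, 4x0043 with 39.8 CPM and 4X0095 with 7.4 CPM, and no other heart reached 6 CPM. In 10 animals not a single read was counted for it, which allows levels of up to between 0.0396 CPM and 0.158 CPM in these libraries. LEP (ENSPTRG00000047519), which encodes leptin, was between 0 CPM and 22.4 CPM with a median of 0.00935 CPM, and had no count in 19 animals, where the floor was between 0.0396 CPM and 0.208 CPM. The same animals led in the same order, with 9.35 CPM in 389, 3.95 CPM in 4x0043 and 0.994 CPM in 4X0095. Together 4X0267, 389 and 4x0043 held 92.2% of the ADIPOQ level summed over all animals and 93.4% of the LEP level. In bulk tissue, fewer cells of a type and less RNA per cell cannot be told apart.

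Proteins of the fat droplet surface fell into a pair of unlike patterns. PLIN1 (ENSPTRG00000007436), perilipin 1, which coats the droplet of fat cells and restrains lipolysis, was between 0.0482 CPM and 177 CPM with a median of 0.550 CPM. CIDEC (ENSPTRG00000014600), which helps droplets fuse into a single large one, was between 0.148 CPM and 96.5 CPM with a median of 0.478 CPM. Both were again highest in 4X0267, then 389, 4x0043 and 4X0095: PLIN1 reached 59.4 CPM in 389, 22.9 CPM in 4x0043 and 6.54 CPM in 4X0095. The CIDEC level was 35.8 CPM in 389, 12.4 CPM in 4x0043 and 2.62 CPM in 4X0095. In 4X0267 the PLIN1 level was 321 times and the CIDEC level 202 times the median of all animals, and the animals 4X0267, 389 and 4x0043 held 87.2% of the summed PLIN1 level and 86.1% of the summed CIDEC level. PLIN4 (ENSPTRG00000010313), a perilipin that coats nascent droplets and is also made in muscle, was present in every heart, between 20 CPM and 467 CPM with a median of 244 CPM. Its highest level was also in 4X0267, followed by 503 with 373 CPM, while 389 ranked 5 and 4x0043 ranked 18, inside the range of the other hearts. At the low end of PLIN4 stood Little_R with 20 CPM and 537 with 25.9 CPM, the libraries that resembled the others least.

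The members that take up, build or break down lipid were present in every heart. FABP4 (ENSPTRG00000020375), a fatty acid binding protein of fat cells that capillary endothelium also makes, was between 119 CPM and 1671 CPM with a median of 266 CPM. It was highest in 4X0354, then in 495 with 912 CPM and 4x0043 with 898 CPM, while 4X0267 ranked 8 and 389 ranked 16. The order of 495 and 4x0043 depends on the library size, since 495 had 19459 counts in a gene table total of 47754418 and 4x0043 had 27954 in 53046061. LIPE (ENSPTRG00000011058), hormone-sensitive lipase, was between 13.9 CPM and 128 CPM with a median of 24.3 CPM. It was highest in 4X0267, followed by 389 with 57.2 CPM and 4x0043 with 42.7 CPM, and the last of these lay only just above 4X0339 with 40.0 CPM. This small gap depends on the library size, since 4X0339 had 961 counts in a gene table total of 62117603, against 1328 in 53046061 for 4x0043. GPD1 (ENSPTRG00000004925), the cytosolic enzyme that makes glycerol 3-phosphate, the backbone of triglyceride, was between 55.7 CPM and 334 CPM with a median of 123 CPM. It was highest in 4X0267 and second in 4X0339 with 234 CPM, while 389 ranked 4 and 4x0043 ranked 9. The place of 4X0339 depends on the library size, since it had 5633 counts in a gene table total of 62117603, against 7352 in 60601964 for MD_And. The animals 4X0267, 389 and 4x0043 held 12.2% of the summed PLIN4 level, 12.2% of FABP4, 13.5% of GPD1 and 21.3% of LIPE.

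**Figure D1:**
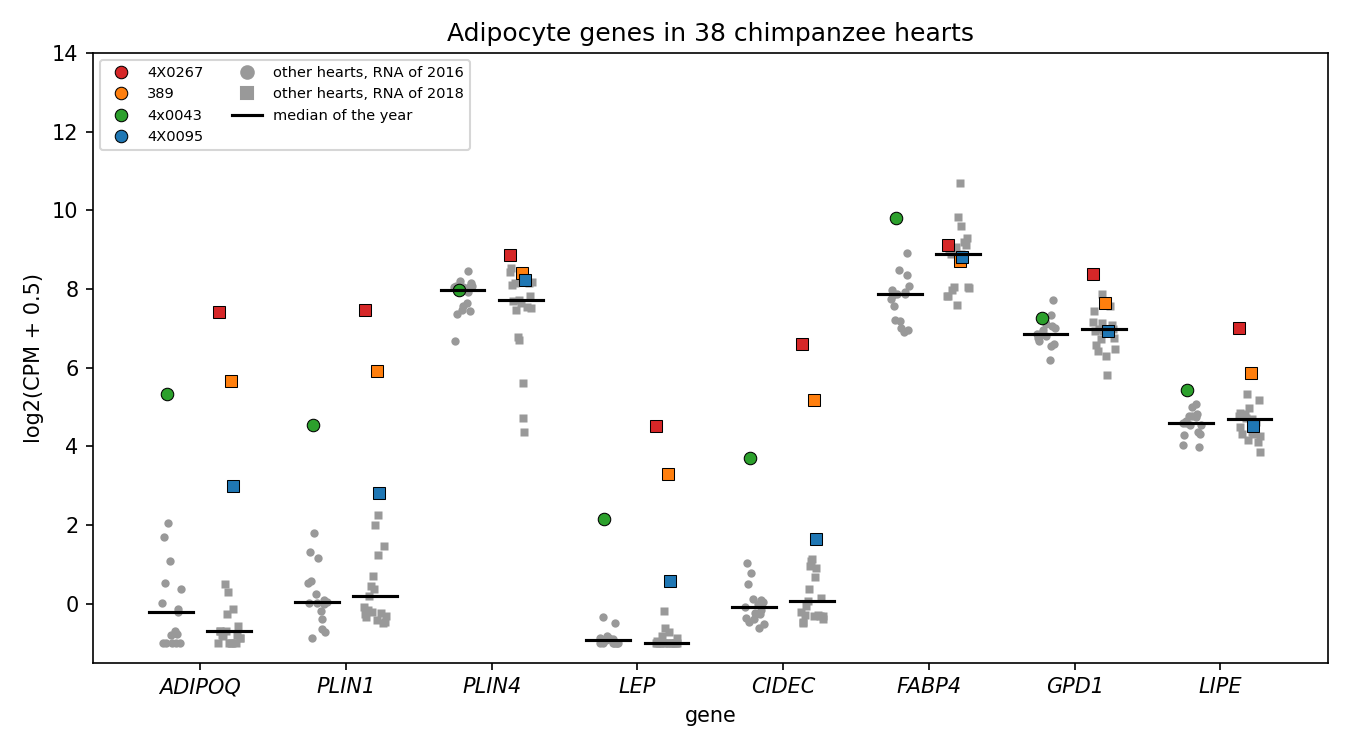
Level of each member, as log2(CPM + 0.5), in 38 hearts, where each point is 1 animal, circles are RNA of the earlier year, squares RNA of 2018 and the black line is the median of the year. ADIPOQ and LEP sit near their floor and PLIN1 and CIDEC are low in most hearts, and all 4 rise in 4X0267, 389, 4x0043 and 4X0095, while PLIN4, FABP4, GPD1 and LIPE are present in every heart.

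Across members, 4X0267 had the highest level of 7 of 8, and FABP4 was the exception. It ranked among the 3 highest animals for 7 members, 4x0043 for 6 and 389 for 5. Over 13121 genes that reached 6 CPM in 1 animal or more, these shares were 3.57%, 4.72% and 1.79%. 4X0267 was highest for 1.02% of them. ADIPOQ, PLIN1, CIDEC and LEP reached 6 CPM in 4, 4, 3 and 2 animals, so they had to be high there and are no support. The animal 4X0095 ranked among the 3 highest for 0 members, being the fourth for ADIPOQ, LEP, PLIN1 and CIDEC. Without 4X0267, 389 and 4x0043, the highest ADIPOQ level among the remaining 35 animals was 7.4 CPM, that of PLIN1 6.54 CPM, that of CIDEC 2.62 CPM and that of LEP 0.994 CPM, all in 4X0095. The medians of the 35 animals were 0.112 CPM for ADIPOQ, 0.519 CPM for PLIN1 and 0.438 CPM for CIDEC. The upper end of FABP4 did not change, since 4X0354 is not among them, and LIPE then reached 40.0 CPM in 4X0339. With the gene table total 676 would be above it for LIPE, with 1477 counts in 70194546 against 961 in 62117603.

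The count on orthologous exons gave a second measurement of 2 members, those whose human identifier could be tied to a symbol. PLIN1 (chr15:70442944-70457960 on Pan_tro_3.0, minus strand, 9 exons) gave almost the same counts there, with a median of 101% of the gene table count over 38 animals and a range from 96.3% to 114%. Its level on these exons was between 0.0482 CPM and 180 CPM with a median of 0.550 CPM and a Spearman correlation of 0.999 with the level from the gene table. GPD1 (chr12:39785444-39792944, minus strand, 10 exons) differed: the orthologous exons held a median of 6.73% of its gene table count, between 0.735% in 4X0354 and 63.2% in 4X0267. Over all animals together the orthologous exons held 15% of the GPD1 count, where the median of 1833 genes that could be paired between the tables was 102%, and GPD1 lay at percentile 1.15 of them. Most reads assigned to GPD1 in the gene table were therefore not counted on its orthologous exons. They are called the reads outside the orthologous exons in what follows. The tables were counted with different programs, and whether these reads lie elsewhere or were only counted differently was not tested.

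On the orthologous exons GPD1 was between 0.694 CPM and 211 CPM with a median of 7.68 CPM. There 4X0267 was highest and 389 second with 77.8 CPM, followed by 4X0339 with 44.1 CPM, 503 with 37.8 CPM, 529 with 37.2 CPM and 4x0043 with 33.2 CPM, while 4X0095 had 8.86 CPM. The Spearman correlation of GPD1 with LEP over 38 animals was 0.53 when GPD1 was counted on orthologous exons and 0.26 in the gene table. With PLIN1 it was 0.32 and 0.12, with PLIN4 0.38 and 0.15, and with ADIPOQ 0.37 and 0.30. Without 4X0267, 389 and 4x0043 the correlation on orthologous exons was 0.39 with LEP, 0.28 with PLIN4, 0.20 with ADIPOQ and 0.14 with PLIN1. With FABP4 it was -0.12 on orthologous exons and 0.30 in the gene table. The reads outside the orthologous exons were between 55.0 CPM and 202 CPM with a median of 114 CPM and were highest in MD_And, which ranked 15 for ADIPOQ, 19 for PLIN1 and 22 for CIDEC and had no LEP count. In the RefSeq order of chimpanzee genes the neighbours of GPD1, looked up after the values were seen, are COX14, an assembly factor of cytochrome c oxidase, and SMARCD1, a chromatin remodelling subunit. No gene of the count table carried the symbol COX14, and the level of SMARCD1 had a Spearman correlation of -0.17 with the reads outside the orthologous exons. Where these reads come from was not tested, and the GPD1 levels of the gene table are uncertain to this extent. PLIN4, CIDEC and LIPE overlap another gene in RefSeq (HDGFL2, JAGN1 and LOC107969552), and since the strand setting of the gene table is not given, their counts are uncertain too.

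**Figure D2:**
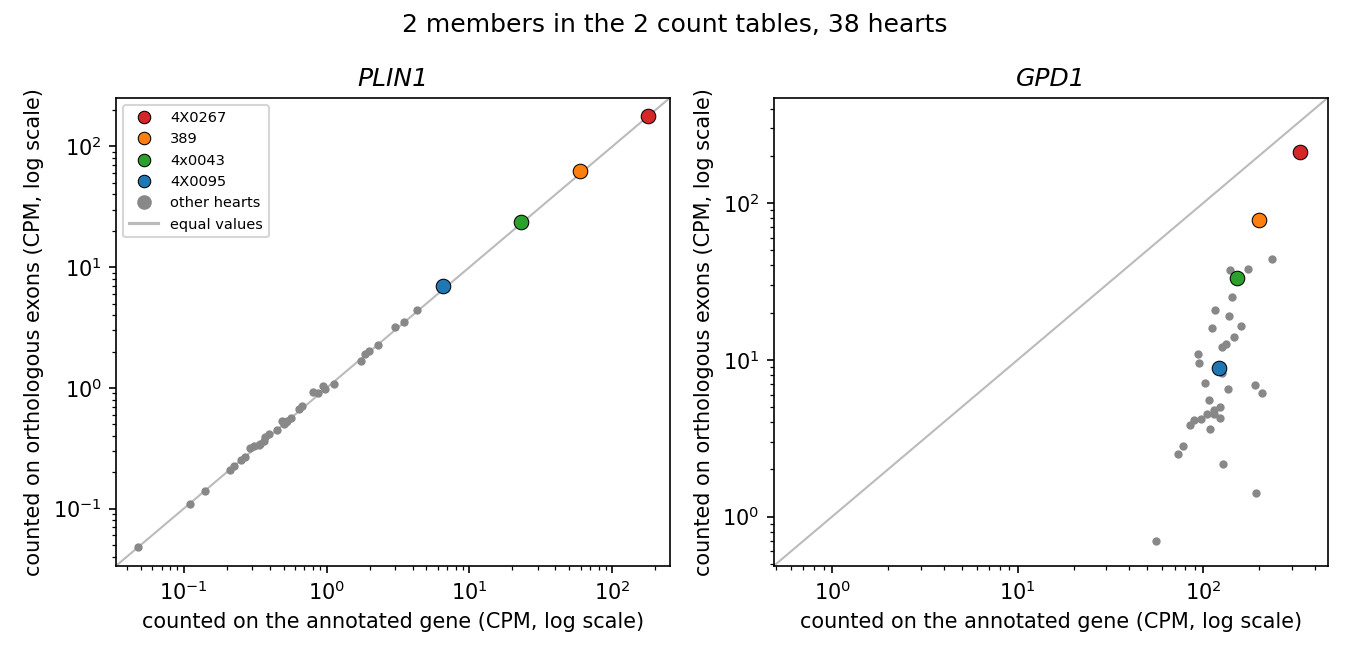
PLIN1 and GPD1 counted on the annotated gene (horizontal axis, CPM, log scale) and on orthologous exons (vertical axis, CPM, log scale) in 38 hearts, each point being 1 animal and the line marking equal values. PLIN1 lies on the line, while GPD1 lies below it in every heart, least so in 4X0267.

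Whether the same hearts were high for every member was described by the correlations of log2 CPM between members, over 38 animals. Both values of a point come from the same library, and the libraries differ in depth and RNA quality. Over the 28 pairs of members the median Spearman correlation was 0.25, with a range from -0.18 to 0.80, and 25 pairs were positive. The median Pearson correlation, which gives the hearts with extreme levels more weight, was 0.41. Within the extraction years the median Spearman correlation was 0.21 over the 17 animals of the earlier year and 0.29 over the 21 animals of 2018. Without 4X0267, 389 and 4x0043 it fell to 0.09 over 35 animals, with 19 positive pairs, and was 0.13 in the earlier year and 0.10 in 2018. Without 537 and Little_R it was 0.23.

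The correlations split the members in the same way as the levels. Among ADIPOQ, PLIN1, LEP and CIDEC, grouped after their values were seen, the median over the pairs was 0.61, between 0.59 and 0.80, and the highest value was that of PLIN1 with CIDEC. This group kept a median of 0.50 without 4X0267, 389 and 4x0043, with PLIN1 and CIDEC at 0.74. The same group had a median of 0.63 in the earlier year and 0.58 in 2018, and 0.56 and 0.42 without the 3 animals, where 5 of the 6 pairs of 2018 lay between 0.38 and 0.47. Since the group was formed from these values, its correlations describe it and test nothing. Among PLIN4, FABP4, GPD1 and LIPE the median was 0.22, and 0.09 without the 3 animals. It was -0.03 in the earlier year and 0.30 in 2018, and -0.11 and 0.16 without the 3 animals. The lowest correlation of any pair was that of PLIN4 with FABP4. Without the 3 animals it was -0.27.

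**Figure D3:**
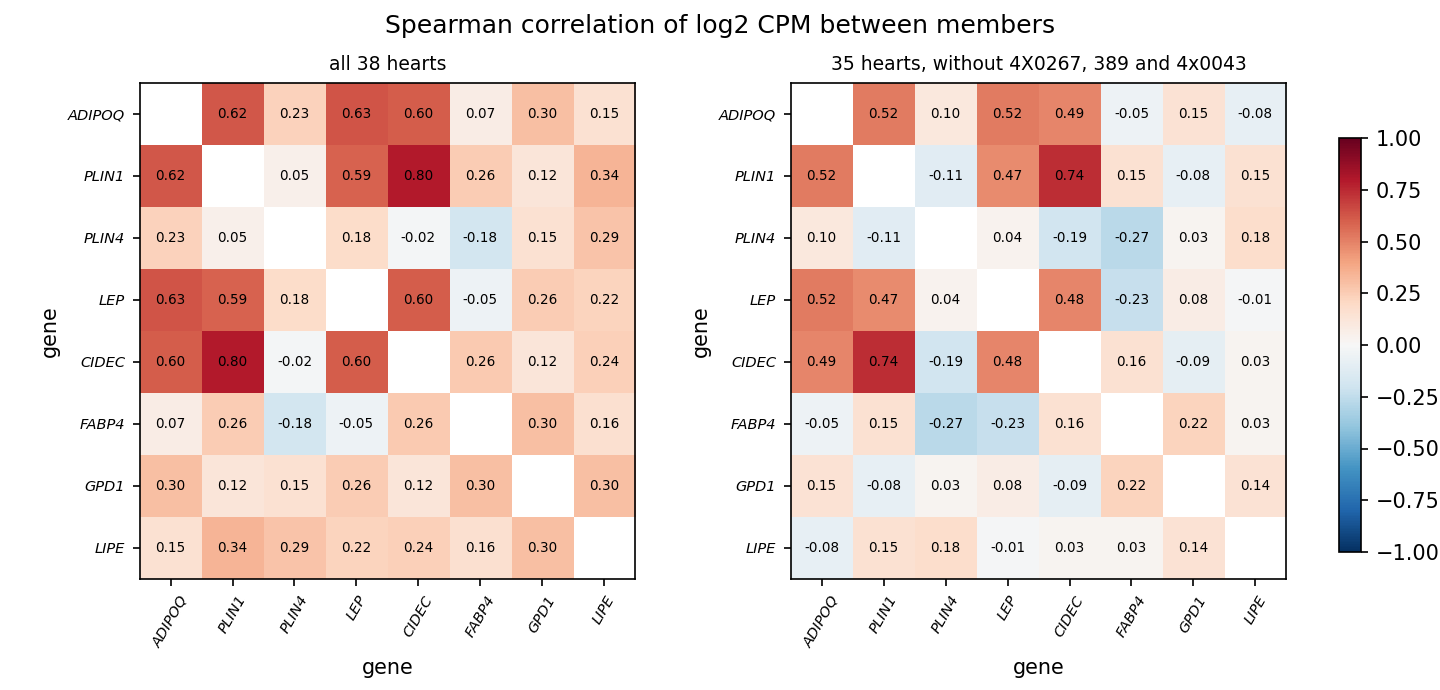
Spearman correlation of log2 CPM for each pair of members, over all 38 hearts (left) and over 35 hearts without 4X0267, 389 and 4x0043 (right), with red for positive and blue for negative values. ADIPOQ, PLIN1, LEP and CIDEC form a block of positive values in both panels.

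The library total on orthologous exons followed single members in different ways. This total is also the denominator of CPM, so a low total by itself raises the CPM of a library. It is not depth alone: 537 had 18946174 counts on orthologous exons but 62669620 in the gene table. The PLIN4 level had a Spearman correlation of 0.56 with the library total over 38 animals (Pearson 0.58), 0.25 in the earlier year and 0.66 in 2018. The FABP4 level ran the other way, with a Spearman correlation of -0.43 (Pearson -0.46), -0.47 in the earlier year and -0.54 in 2018. For ADIPOQ the correlation with the total was 0.09, for LEP 0.04, for PLIN1 -0.24 and for CIDEC -0.25, and without 4X0267, 389 and 4x0043 it was -0.34 for PLIN1 and -0.37 for CIDEC. The parts of depth and of the denominator in these correlations were not tested.

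Dispersion, a measure of variability after the study, is the natural logarithm of a gene's overdispersion between animals relative to genes of the same mean level. The study fitted counts on orthologous exons, while here the gene table counts were fitted with the orthologous exon totals, so the values differ in kind, most of all for GPD1. It was computed for the 13121 genes that reached 6 CPM in 1 animal or more. All 8 members passed this filter, but ADIPOQ and PLIN1 reached 6 CPM in 4 animals, CIDEC in 3 and LEP in 2, so that these genes passed only through the hearts where they were high and had to vary. ADIPOQ had a dispersion of 3.45 (standard error 0.80 from 1000 resamples of the animals), rank 13 of all genes. PLIN1 had 2.72 ± 0.89, LEP 2.23 ± 0.63 and CIDEC 2.15 ± 0.96, with 98.2% or more of all genes at or below each of them. FABP4 had 1.37 ± 0.23, PLIN4 1.11 ± 0.37, LIPE 0.55 ± 0.61 and GPD1 0.23 ± 0.30. Without 4X0267, 389 and 4x0043 the dispersion of ADIPOQ was 0.82, at percentile 82.0, that of PLIN1 was -0.01, and that of LIPE was -0.81, so that LIPE then varied less than most genes of its level. GPD1 turned from 0.23 to -0.14. ADIPOQ and PLIN1 then passed the filter through 4X0095 alone and had no value without it, and LEP and CIDEC no longer passed. FABP4 with 1.33 and PLIN4 with 1.05 changed little there, but the value of PLIN4 was 0.72 without 537 and Little_R. In the earlier year alone ADIPOQ had 2.85, PLIN1 1.41 and CIDEC 0.49, all of them passing the filter through 4x0043 alone. LEP had no value there. PLIN4 had 0.35 in the earlier year alone and 1.38 in 2018 alone, and LIPE had -0.07 and 0.85. GPD1 had 0.07 in the earlier year alone, 0.07 with totals of the annotated gene counts and 0.45 with TMM library sizes. The dispersion of FABP4 was 1.66 without 537 and Little_R, 1.01 with TMM library sizes and 0.67 with totals of the annotated gene counts. It was 1.74 in the earlier year alone and 0.86 in 2018 alone.

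The extraction year separates the libraries into batches. Medians of the earlier year and 2018 were 233 CPM and 472 CPM for FABP4, with ranges from 119 CPM to 898 CPM and from 191 CPM to 1671 CPM. The ranges overlapped widely, but the hearts of 2018 lay higher. Little_R, 537, 558, 4X0339, 4X0354, 529 and 495, whose CPM is raised by a low orthologous total, are all of 2018. The size of the difference between these medians therefore depends on the choice of total. The edgeR test that follows uses TMM library sizes of the gene table instead. Medians of PLIN1 were 0.533 CPM and 0.644 CPM, and those of CIDEC 0.438 CPM and 0.539 CPM, while ADIPOQ ran the other way with 0.369 CPM and 0.112 CPM. The hearts with the highest levels of these genes, 4X0267 and 389, belong to 2018. The edgeR quasi-likelihood test, with sex as covariate and Benjamini-Hochberg adjustment over 15790 genes, called 2536 genes (16.1%), of which 1775 (11.2% of those tested) were higher in 2018. Of the 7 members tested, 3 were called, all higher in 2018, and LEP did not pass the filter of the test.

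FABP4 was higher in 2018 by 0.79 ± 0.25 on the log2 scale (edgeR quasi-likelihood test, Benjamini-Hochberg adjusted p = 0.0238). It was the only member called by DESeq2 and by limma-voom, without 4X0267, 389 and 4x0043, and with RNA integrity as a further covariate. It was called in each of the 38 fits that left out a single animal, with log2 differences from 0.68 to 1.03. Among the 21 animals of the Yerkes center alone its difference was 0.82 and it was not called (Benjamini-Hochberg adjusted p = 0.0746 in the edgeR quasi-likelihood test).

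PLIN1 differed by 2.86 ± 0.96 and CIDEC by 2.64 ± 0.87 on the log2 scale, with Benjamini-Hochberg adjusted p of 0.0368 and 0.0338 in the edgeR quasi-likelihood test. Either call was lost when 1 heart was left out. Without 4X0267 the PLIN1 difference was 0.64 (Benjamini-Hochberg adjusted p = 0.702 in the edgeR quasi-likelihood test) and the CIDEC difference 0.39 (adjusted p = 0.792). Without 389 they were 1.64 and 1.58, with Benjamini-Hochberg adjusted p of 0.181 and 0.170 in the edgeR quasi-likelihood test. The PLIN1 call was also lost without sex as covariate (log2 difference 2.58, Benjamini-Hochberg adjusted p = 0.0568 in the edgeR quasi-likelihood test). The same call was lost on leaving out 456, 462, 623, 95A014 or MD_And, but there the log2 difference was between 2.79 and 2.83, with Benjamini-Hochberg adjusted p between 0.0504 and 0.0524 in the edgeR quasi-likelihood test. ADIPOQ turned with the animals too: its log2 difference was 2.23 ± 1.23 over all animals, -0.49 without 4X0267 and 3.84 without 4x0043. Without 4x0043 alone it was called (Benjamini-Hochberg adjusted p = 0.0363 in the edgeR quasi-likelihood test). Without 4X0267, 389 and 4x0043 the ADIPOQ difference was -0.72 and the PLIN1 difference 0.60, with neither called. PLIN4, GPD1 and LIPE were not called in any of these fits, and their log2 differences over all animals were -0.10 ± 0.27, 0.14 ± 0.18 and 0.27 ± 0.21. The sign of PLIN4 turned to 0.04 without 537 and Little_R.

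RNA integrity was tested per unit of the RNA integrity number (RIN), with year and sex as covariates. The edgeR quasi-likelihood test called 0 of 16462 genes (0%) after Benjamini-Hochberg adjustment, and 2276 genes (13.8%) had an unadjusted p under 0.05, of which 978 (5.94% of those tested) were lower with higher RIN. DESeq2 called 206 genes and limma-voom 0. Of the 7 members tested 0 were called by edgeR, and 5 had an unadjusted p under 0.05, all with a negative slope. The slope of PLIN4 was -0.05 ± 0.10, and the Spearman correlation with RIN over 38 animals was 0.03 for ADIPOQ, 0.01 for PLIN1 and 0.05 for CIDEC. The smallest p values were those of FABP4, which fell by 0.27 ± 0.06 per RIN unit on the log2 scale, and of GPD1, which fell by 0.22 ± 0.05, both with a Benjamini-Hochberg adjusted p of 0.151 in the edgeR quasi-likelihood test. DESeq2 called both, with Benjamini-Hochberg adjusted p of 0.0212 for FABP4 and 0.0120 for GPD1. Leaving out animal 495, edgeR called 9 genes, among them GPD1 with a Benjamini-Hochberg adjusted p of 0.0495 in the quasi-likelihood test. The slopes of ADIPOQ, PLIN1 and CIDEC, -0.87, -0.71 and -0.77, turned to 0.68, 0.21 and 0.16 without 4X0267, 389 and 4x0043.

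For GPD1 the relation to RNA integrity was described for both groups of reads. The level outside the orthologous exons had a Spearman correlation of -0.67 with RIN over 38 animals, -0.64 in the earlier year and -0.73 in 2018. The level on orthologous exons had -0.29, with -0.10 in the earlier year and -0.31 in 2018. In the edgeR quasi-likelihood test on the exon counts, added after the data were seen, the slope of GPD1 was -0.51 ± 0.21 (unadjusted p = 0.0192, Benjamini-Hochberg adjusted p = 0.339).

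The genes most like the members were found by the Spearman correlation of each gene with a member index, the mean over the 8 members of log2 CPM scaled to mean 0 and standard deviation 1. The index itself had a Spearman correlation of -0.47 with RIN over 38 animals, -0.23 in the earlier year and -0.54 in 2018, so RNA quality moves with it, and the part of RNA quality in the correlations with the index was not tested. Among genes with a symbol the median correlation was -0.0049. The highest were NDUFA13 (0.77), a subunit of respiratory complex I, MRPL24 (0.74), a mitochondrial ribosomal protein, FAHD2A (0.69), CIDEA (0.69), a droplet protein related to CIDEC, and TMEM256 (0.69). They were followed by SURF1 (0.68), an assembly factor of cytochrome c oxidase, ETFB (0.68), which passes on electrons from fatty acid oxidation, BOLA1 (0.66), UBL5 (0.65), COX6B1 (0.65), a subunit of cytochrome c oxidase, COPS6 (0.64), AURKAIP1 (0.64), HSPB3 (0.64), SARS2 (0.64) and GADD45GIP1 (0.64). Only CIDEA among these 15 is a droplet protein, and its level was between 2.99 CPM and 52.9 CPM with 4X0267 highest. Within years the correlation of NDUFA13 was 0.63 in the earlier year and 0.85 in 2018, and 0.58 over all years without the 3 animals. The lowest correlations were those of MAP4K4 (-0.66), a kinase, PAG1 (-0.57), EXT1 (-0.57), KLHL25 (-0.55) and DIP2B (-0.54).

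This list depended on how GPD1 was counted. The 15 genes had a median Spearman correlation of 0.72 with the GPD1 reads outside the orthologous exons, between 0.50 and 0.89 with COX6B1 highest, and of 0.36 with GPD1 on the orthologous exons. When GPD1 entered the index by its orthologous exon count, an alternative chosen after the data were seen, 2 of the 15 genes were again among the highest, HSPB3 and SARS2. The new list was led by KCNIP2, a potassium channel subunit named after its values were seen. With ADIPOQ alone in place of the index, 0 of the 15 were shared. Without 4X0267, 389 and 4x0043, 4 of the 15 were shared.

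In the authors' normalized matrix, which holds scores for 37 animals and 6 of the 8 members, the same hearts led for PLIN1 and CIDEC but not for PLIN4 or FABP4. PLIN1 was highest in 389 with a score of 3.8, then in 4X0267 with 3.62 and 4x0043 with 2.25. CIDEC was highest in 4X0267 with 3.8, then in 389 with 3.21 and 4x0043 with 2.42. Scores of LIPE were highest in 389 and 4X0267, with 3.08 and 2.73, but 4x0043 had 0.33. PLIN4 was highest in 623 with 1.963, 456 with 1.53 and 4x0043 with 1.13, with 0.98 in 4X0267 and 0.79 in 389. FABP4 was led by 4X0095 with 2.20, then 4x0043 with 1.84. For GPD1, 389 led with 2.40, 4X0357 had 1.85, 4X0339 had 1.69 and 4X0267 only 1.45, and 4x0043 was at -0.45. The Spearman correlation between score and CPM over animals was 0.85 for PLIN1, 0.82 for CIDEC and 0.55 for GPD1. ADIPOQ and LEP are not in the matrix.

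The pathways around the members were described with 18 lists of 150 genes in all, of which 146 had a match in the table and 131 were expressed, that is, reached 6 CPM in 1 animal or more. For extraction year 134 were tested, and 10 were higher and 9 lower in 2018 by the edgeR quasi-likelihood test after Benjamini-Hochberg adjustment, where over all 15790 genes 16.1% were called, 1775 higher and 761 lower. SLC2A4, CEBPA, UPK3B and CLDN5 had no match. Correlations of the lists with the index use GPD1 as counted in the gene table, and the genes most like the members changed with that count.

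Genes that build fat were high in 1 heart above all. Of 14 expressed genes of triglyceride and fatty acid synthesis, 4X0267 had the highest level of 8 and ranked among the 3 highest animals for 12, where over 13121 genes it was highest for 1.02% and among the 3 highest for 3.57%. THRSP (a regulator of fat synthesis), PCK1 and ELOVL6 (a fatty acid elongase), picked out after the values were seen, reached 6 CPM in 1, 3 and 3 animals, 4X0267 among them, so they had to be high there and are no support. Of the other 11 genes 4X0267 was highest for 6 and among the 3 highest for 9. The summed level of the whole list was between 284 CPM and 1282 CPM with a median of 385 CPM, and the highest was 4X0267, followed by 529 with 522 CPM, with 487 CPM in 389 (rank 6) and 394 CPM in 4x0043 (rank 18). The places after 4X0267 depend on the library size, since 529 had 26120173 counts on orthologous exons against 60389782 in the gene table. DGAT2, which completes triglyceride, was between 4.44 CPM and 101 CPM with a median of 17 CPM. SCD, which desaturates fatty acids, was between 0.917 CPM and 81.7 CPM with a median of 3.67 CPM. Both were highest in 4X0267, and 389 and 4x0043 lay inside the range of the other hearts. FASN, the fatty acid synthase, chosen after its values were seen, was 390 CPM in 4X0267, 42.8 CPM in 389 and 37.9 CPM in 4x0043, against a median of 22.7 CPM. PCK1, an enzyme of glycerol synthesis in fat cells, was instead high in all 3 of these animals, with 35.7 CPM in 4X0267, 34.3 CPM in 4x0043 and 19.6 CPM in 389, against a median of 0.359 CPM. The most abundant gene was AGPAT2 with a median of 74.0 CPM, which had the highest correlation with the index (0.49), and ACLY had the lowest (-0.36). MLXIPL, a carbohydrate response factor chosen after its values were seen, was the 1 gene of the list called by year, higher in 2018 by 1.52 ± 0.48 (edgeR quasi-likelihood test, Benjamini-Hochberg adjusted p = 0.0253), and it was also highest in 4X0267.

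Other markers of fat cells were described in the same way. Of 12 expressed markers 4X0267 had the highest level of 7, but 6 of these, all except CIDEA, reached 6 CPM only in 4X0267 or in 4X0267, 389 and 4x0043, so their count is no support for a lead of these hearts. The median Spearman correlation of the 12 with the index was 0.38, and 0.28 without the 3 animals, but it takes in these 6 genes and is no support either. CIDEA was highest (0.69) and HSD11B1 lowest (-0.15), both among the other 6. The most abundant marker was AQP7, a glycerol channel, with a median of 147 CPM, and 4x0043 ranked 26. CFD, adipsin, was between 26.1 CPM and 785 CPM with a median of 78.1 CPM, highest in Little_R, with 4X0267 the fourth and 389 the fifth. TRARG1, a protein of glucose transporter vesicles, had a median of 1.42 CPM and was highest in 4X0267 with 34.6 CPM. SLC19A3, a thiamine transporter chosen after its values were seen, had a median of 0.278 CPM and was also highest in 4X0267, with 56.9 CPM. The summed level of the list was between 176 CPM and 1257 CPM with a median of 396 CPM. Of 12 tested genes 2 were higher in 2018, LGALS12 and SLC19A3. Both reached 6 CPM only in 4X0267 or in 4X0267, 389 and 4x0043, so this count is no support either.

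Of 8 secreted factors, 7 were expressed and none was called by year. NAMPT was the most abundant with a median of 299 CPM, the summed level was between 226 CPM and 3335 CPM with a median of 551 CPM, the median correlation with the index was -0.06, and ANGPTL4 was highest (0.40). RBP4, a retinol carrier chosen after its values were seen, reached 6 CPM in 2 animals and was highest in 4X0267 with 25.9 CPM, against a median of 0.275 CPM, and ranked 3 in 389 and 4 in 4x0043. ITLN1, omentin of mesothelium and visceral fat, had no count in 18 animals and was highest in 389 with 1.76 CPM. The receptors of adiponectin and leptin, 5 of 5 expressed, had a median correlation of 0.01 (-0.13 without the 3 animals), with ADIPOR2 highest (0.12) and ADIPOR1 lowest (-0.18), and a summed level between 206 CPM and 868 CPM. CDH13, which binds adiponectin, was the most abundant with a median of 186 CPM, and 3 of the 5 genes were lower in 2018, as were 761 of all 15790 genes.

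Of 11 other droplet proteins, 9 were expressed, with a summed level between 834 CPM and 2297 CPM and a median correlation with the index of 0.11, CIDEA being highest (0.69) and CAVIN1 lowest (-0.13). CAV1, of the caveolae, was the most abundant with a median of 496 CPM. PLIN2, the perilipin found in most tissues, was between 13.4 CPM and 106 CPM, where 4X0095 ranked 7, 4x0043 ranked 8, 389 ranked 28 and 4X0267 ranked 36. PLIN5, the perilipin of oxidative muscle, was between 9.84 CPM and 223 CPM with a median of 45.3 CPM and was the 1 gene of this list higher in 2018, by 1.02 ± 0.31 (edgeR quasi-likelihood test, Benjamini-Hochberg adjusted p = 0.0211). Its highest heart was 676, while 4X0095 ranked 9, 4X0267 ranked 11, 389 ranked 17 and 4x0043 ranked 37.

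Lipolysis was represented by 12 genes, 10 of them expressed, with a summed level between 609 CPM and 1680 CPM, a median correlation of 0.21 with the index and 1 gene higher in 2018. MGLL, which splits monoglycerides, was the most abundant with a median of 265 CPM, and its correlation with the index was -0.03. PNPLA2, adipose triglyceride lipase, was between 90.1 CPM and 548 CPM with a median of 238 CPM and had the highest correlation (0.41), with 4X0267 the second at 442 CPM. ABHD5, its activator, had the lowest (-0.08). Of the genes for uptake of fatty acids and glucose, 9 of 10 were in the table, all expressed, and none was called by year. Their summed level was between 688 CPM and 4610 CPM, with a median correlation of 0.28 (0.16 without the 3 animals), TRARG1 highest (0.33) and INSR lowest (-0.24). TRARG1 reached 6 CPM only in 4X0267, 389 and 4x0043 and had 0.08 without them. FABP3, the fatty acid binding protein of heart muscle, was the most abundant with a median of 1235 CPM. LPL, lipoprotein lipase, was between 76.5 CPM and 1773 CPM with a median of 616 CPM, and CD36, a fatty acid transporter, was between 89.5 CPM and 889 CPM, with 4X0095 highest.

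Transcription factors of fat cell formation, 11 of 12 in the table and all 11 expressed, had a median correlation of -0.09 (0.06 without the 3 animals) and a summed level between 223 CPM and 813 CPM, with RXRA the most abundant at a median of 102 CPM and CEBPB lowest in correlation (-0.21). PPARG, the main regulator of fat cell identity, was present in every heart, between 7.52 CPM and 54.1 CPM with a median of 16.5 CPM. It was highest in 4X0354, which was also highest for FABP4, and second in 4X0267 with 36 CPM, and it had the highest correlation of its list with the index (0.34). It was also the 1 gene of the list called by year, higher in 2018 by 0.59 ± 0.13 (edgeR quasi-likelihood test, Benjamini-Hochberg adjusted p = 0.00189). Brown and beige fat markers, 5 of 8 expressed, had a median correlation of 0.29, with CIDEA highest (0.69) and DIO2 lowest (-0.36), and none was called by year. Their summed level was between 86.2 CPM and 783 CPM, with PPARGC1A the most abundant at a median of 134 CPM. UCP1, the defining protein of brown fat, had no count in 10 animals and reached at most 0.191 CPM.

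Markers of other cell types were compared with the members for the whole of each list. Heart muscle was not low in the hearts with high ADIPOQ: the summed cardiomyocyte level was 144805 CPM in 4X0267 (rank 6), 142359 CPM in 389 (rank 7) and 121984 CPM in 4x0043 (rank 16), and the median correlation of the 11 markers with the index was 0.21, with CKM highest (0.43) and MYL2 lowest (-0.10). Without the 3 animals this median was 0.09 and CKM had 0.23. None of the 11 was called by year. Of 10 markers of epicardium and mesothelium 7 were expressed, with a summed level between 93.7 CPM and 570 CPM, a median correlation of -0.01 and 2 genes higher in 2018. KRT8 was the most abundant with a median of 124 CPM and the highest in correlation (0.34), and ALDH1A2 was the lowest (-0.24). The sum was 233 CPM in 389 (rank 5), 226 CPM in 4X0267 (rank 6) and 114 CPM in 4x0043 (rank 34). Of the 7 expressed markers 389 ranked among the 3 highest for 3 but 22 for ALDH1A2, which makes retinoic acid, and 31 for WT1, a transcription factor of epicardium chosen after its values were seen, and over all 13121 genes it was among the 3 highest for 1.79%. MSLN, mesothelin, chosen after its values were seen and at 6 CPM only in 389 and Little_R, was 7.58 CPM in 389, where it ranked second, 2.12 CPM in 4X0267 and 0.707 CPM in 4x0043, had no count in 3 animals and was highest in Little_R with 42.3 CPM. MSLN is among the 3 markers counted for 389 and had to be high there, so that count is no support.

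Endothelial markers, 6 of 7 in the table, summed to between 814 CPM and 4679 CPM, with VWF the most abundant at a median of 711 CPM, a median correlation of -0.04, EGFL7 highest (0.04), TEK lowest (-0.25) and 1 gene higher in 2018. Their sum was highest in 537, ranked 3 in 495 with 3307 CPM and 4 in 4X0354 with 3299 CPM, hearts that were also high for FABP4, and ranked 2 in Little_R. All 4 are libraries with a low share of counts on orthologous exons. Fibroblast markers, 6 of 6 expressed, were all negatively correlated with the index, with a median of -0.31, LUM highest (-0.23) and PDGFRA lowest (-0.34), and -0.15 without the 3 animals. Their summed level had a Spearman correlation of -0.31 with the index but -0.004 with ADIPOQ alone. Their sum was between 634 CPM and 10477 CPM, highest in Little_R, with DCN the most abundant at a median of 941 CPM, and none was called by year. Smooth muscle and pericyte markers, 6 of 6 expressed, had a median correlation of -0.05 and summed to between 351 CPM and 2498 CPM, with TAGLN the most abundant at a median of 205 CPM, MYH11 highest (0.26), RGS5 lowest (-0.17) and 1 gene higher in 2018. Their sum ranked 5 in 389.

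The T cell and red cell lists set 4x0043 apart from 4X0267 and 389, while the macrophage sum ranked 21, 24 and 28 in these animals. T cell markers, 5 of 5 expressed, summed to between 2.70 CPM and 131 CPM with a median of 13.7 CPM, and 4x0043 was the highest heart, while 4X0267 ranked 14 and 389 ranked 17. CD8A was the most abundant with a median of 6.99 CPM, the median correlation with the index was 0.04, with CD3D highest (0.12) and CD4 lowest (-0.01), and 1 gene was lower in 2018. Red cell markers, 3 of 5 expressed, summed to between 0.907 CPM and 8945 CPM, with 2336 CPM in 4x0043, the second highest, against 375 CPM in 4X0267 and 111 CPM in 389. HBB, beta globin, was the most abundant with a median of 175 CPM, the median correlation was -0.01, with ALAS2 highest (0.05) and HBA2 lowest (-0.02), and none was called by year. Schwann cell markers, 5 of 5 expressed, summed to between 24.2 CPM and 238 CPM, and CDH19 was the most abundant with a median of 30.8 CPM. Their median correlation was 0.09 (0.17 without the 3 animals), with CDH19 lowest (-0.21), and none was called by year. Macrophage markers, 7 of 7 expressed, had a median correlation of -0.01 (0.09 without the 3 animals), with C1QA highest (0.15) and most abundant, at a median of 28.8 CPM, and CD68 lowest (-0.13). They summed to between 32.3 CPM and 788 CPM, and 5 of the 7 were lower in 2018, against 761 of all 15790 genes. The part of these cell types in the levels of the members was not tested.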

How the data were processed

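Counts of 38 libraries, 1 per chimpanzee heart, were used as deposited. The gene table holds each count that the authors obtained with STAR 2.6.1b on Pan_tro_3.0 for 31373 annotated genes, and the sources used here do not give its strand setting. The orthologous exon table holds counts that the authors made with featureCounts 1.6.3 for 44125 genes, without normalization, and exon lengths of another unit, in bases. The deposited normalized matrix gives every gene a score in each of 37 animals, for 13545 genes, which the authors derived from logarithms of CPM by scaling genes over individuals and then ranking values onto a normal distribution. Symbols were matched for 18040 of 31373 identifiers. In all, 52 columns of per-sample values, those of the human table among them, could not be tied to a sample and were not used. Extraction year, RIN and sex came from the paper's sample table and served as technical covariates, since the labels give a single group.

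CPM is the gene table count per 1000000 of the orthologous exon total, and logarithms used a pseudocount of 0.5 CPM. Totals and floors are given in the report. Year (sex as covariate) and RIN (year and sex as covariates) were tested over all genes with edgeR 4.0.16 (TMM, filterByExpr, quasi-likelihood test) and the Benjamini-Hochberg method at a threshold of 0.05, with DESeq2 1.42.0 and limma 3.58.1 as alternatives. Dispersion was the residual of ln overdispersion (negative binomial, maximum likelihood) from a LOESS trend (degree 1, span 0.75) for genes that reached 6 CPM in 1 animal or more, with standard errors from 1000 resamples of the animals. Correlations are descriptions without a test. Other tools were R 4.3.3, data.table (version 1.17.8), Python 3.11.15, pandas 2.3.3, numpy 2.4.6 and matplotlib 3.10.9. The steps were tested on simulated data.

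The members and lists were chosen with earlier results of these data known. Named genes are the members, for each of the 18 lists the most abundant gene and those with the highest and lowest correlation with the index, PPARG, CEBPA, CFD, PLIN2, PLIN5, PNPLA2, MGLL, LPL, CD36, DGAT2, SCD, PCK1, UCP1, CIDEA and ITLN1, and the 15 genes with the highest and 5 with the lowest correlation with the index. Others were chosen after their values were seen. Alternatives were other tests, filters, library sizes, pseudocounts, covariates, count tables and sets of animals. Leaving out 4X0095 or each animal in turn, and using exon counts for the RIN test and for GPD1 in the correlations, were chosen after seeing the data.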

Additional observations from a re-analysis of the deposited data

How the results depend on the processing

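Of the year comparison, 3 members were called, against 1 with DESeq2, with limma-voom, with RIN added, without 4X0267, 389 and 4x0043, and without 4X0095 too, an alternative chosen after seeing the data, 2 without sex as covariate, and 0 among Yerkes animals, where 3.3e+02 genes were called. Leaving out each animal in turn, chosen after seeing the data, gave between 1 and 4 members and between 2145 and 2928 genes. For RIN, 0 members and 0 genes were called, against 2 members and 206 genes with DESeq2. The gene count was 2 with every gene of at least 1 count, 1 without 4X0267, 389 and 4x0043, and 2 without 4X0095 too, and leaving out each animal in turn gave 0 to 1 members and 0 to 9 genes. Of the members, 4 were at or above percentile 95 in dispersion. This number was 5 without 537 and Little_R. In the earlier year alone it was 1, where LEP drops out and ADIPOQ, PLIN1 and CIDEC pass through 4x0043 alone. It was 0 with at least 1 CPM in at least 19 animals and 0 without 4X0267, 389, 4x0043 and 4X0095, where all 4 of these members drop out by the filter, so 0 was fixed in advance. It was 0 without 4X0267, 389 and 4x0043, where LEP and CIDEC drop out and ADIPOQ and PLIN1 pass through 4X0095 alone. The dispersion of PLIN1 changed from 2.72 to -0.0123 without 4X0267, 389 and 4x0043. The median Spearman correlation between members, 0.25, was 0.0902 without 4X0267, 389 and 4x0043 and 0.0711 without 4X0095 too. Of the 15 genes most like the members, 0 were shared with ADIPOQ alone, 4 without 4X0267, 389 and 4x0043, 2 without 4X0095 too, and 2 with GPD1 counted on orthologous exons, also chosen after seeing the data. Of the differences of single members by year, 50 of 71 kept their direction and their side of the threshold, and by RIN 56 of 65. The 6 members of the authors' matrix had a median correlation of 0.25 there and 0.24 in log2 CPM. At the depth of the libraries, LEP and ADIPOQ lie at or below 3 counts in 29 and 18 animals, so their order among the low hearts rests on few reads.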
